A study of Homo sapiens with 16 samples.

Results

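The regions described here gained an H3K27ac peak with TWEAK in MDA-MB-231 cells and already carried one in untreated Hs578T cells. They were selected on the measured peak calls of 3 groups of control cells. Both TWEAK lists of MDA-MB-231 had to hold a peak and neither untreated list of that line, while at least 1 of the 2 untreated lists of Hs578T had to hold one. Of 55219 consensus regions, made by merging the peaks of all 16 lists at 1 bp and keeping those with a peak in at least 2 lists, 1066 met the rule. These members were 1.93% of all regions and 34.6% of the 3079 regions gained by TWEAK in MDA-MB-231. The number depended on 2 lists in particular, being 2616 without MDA-MB-231 control untreated replicate 2 and 695 without Hs578T control untreated replicate 1. In Hs578T control cells that received TWEAK, 92.5% and 94.8% of the members had a peak in the 2 lists, whereas in Hs578T Fn14 KO cells that received TWEAK the shares were 43.8% and 51.2%.

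MDA-MB-231 and Hs578T are established human triple-negative breast cancer (TNBC) lines, and each was profiled by H3K27ac ChIP-seq as CRISPR control cells and as Fn14 KO cells. Cells of every group were starved for 8 h and then kept for 48 h either untreated or with 10 ng/ml TWEAK, which was renewed after 24 h. The 8 groups had 2 replicates each. The KO cells were made with the TLCV2 vector and 2 different guides, and the study's primers for genotyping CRISPR clones include a pair for Fn14 KO. How many clones the profiled cells came from was not given in the sources used here.

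TWEAK is a cytokine of the TNF superfamily and Fn14, encoded by TNFRSF12A, is its receptor. Ligand binding to Fn14 recruits TRAF adaptors and activates canonical and non-canonical NF-κB as well as the MAPK pathways that act on AP-1. H3K27ac is laid down by acetyltransferases such as p300 and CBP and marks active enhancers and promoters.

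To show what such regions look like, 5 of the 10 members with the highest Hs578T TWEAK level among those in all 4 Hs578T control lists, and 1 member that no KO list held (COL11A1), are given as stretches of 200 bases from the hg38 plus strand. Each of these regions was without a peak in untreated MDA-MB-231 control cells and had a peak in both untreated Hs578T control lists. Of 19 named members examined, 14 held the AP-1 letters TGANTCA, and each stretch was centred on one such match, so the match itself was the ground for showing it. Capitals mark TGANTCA and, in the ATF7IP stretch, the κB letters GGGANTTTC. The stretch near KCNJ8 lies at chr12:21796036-21796235 and that near ATF7IP at chr12:14221232-14221431, both between protein-coding genes, the latter overlapping an exon of a long non-coding RNA. The MYO1A stretch at chr12:57064418-57064617 lies within the neighbouring gene NEMP1, the BCL2A1 stretch at chr15:79966282-79966481 in the body of BCL2A1, the ABCA12 stretch at chr2:215137469-215137668 in that gene near its start site, and the COL11A1 stretch at chr1:102942103-102942302 in the body of COL11A1. None of the 6 stretches overlapped an exon of a protein-coding gene.
KCNJ8: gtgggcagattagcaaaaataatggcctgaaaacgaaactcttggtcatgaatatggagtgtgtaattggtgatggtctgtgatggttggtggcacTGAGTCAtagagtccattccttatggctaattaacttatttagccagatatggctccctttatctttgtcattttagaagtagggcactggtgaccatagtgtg
ATF7IP: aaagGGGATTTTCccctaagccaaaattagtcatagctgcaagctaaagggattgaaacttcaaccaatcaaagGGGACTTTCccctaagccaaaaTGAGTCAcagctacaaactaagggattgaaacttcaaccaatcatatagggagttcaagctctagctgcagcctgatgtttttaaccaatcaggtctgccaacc
MYO1A: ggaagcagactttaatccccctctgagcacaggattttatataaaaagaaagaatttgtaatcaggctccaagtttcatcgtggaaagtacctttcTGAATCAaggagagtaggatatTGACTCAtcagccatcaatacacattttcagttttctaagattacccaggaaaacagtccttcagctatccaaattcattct
BCL2A1: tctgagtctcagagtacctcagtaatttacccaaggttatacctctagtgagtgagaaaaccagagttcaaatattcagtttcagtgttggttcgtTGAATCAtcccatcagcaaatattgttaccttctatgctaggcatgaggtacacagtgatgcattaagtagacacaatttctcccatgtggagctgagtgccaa
ABCA12: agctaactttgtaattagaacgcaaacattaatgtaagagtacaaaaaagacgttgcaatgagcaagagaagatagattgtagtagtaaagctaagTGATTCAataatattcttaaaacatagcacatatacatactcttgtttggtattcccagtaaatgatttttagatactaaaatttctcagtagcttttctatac
COL11A1: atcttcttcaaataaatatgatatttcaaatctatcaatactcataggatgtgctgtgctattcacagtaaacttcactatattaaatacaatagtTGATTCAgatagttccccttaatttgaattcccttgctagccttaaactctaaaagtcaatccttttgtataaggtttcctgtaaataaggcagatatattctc
The ATF7IP stretch held 1 AP-1 match and 2 κB matches, and the MYO1A stretch 2 AP-1 matches. The whole BCL2A1 region held 4 AP-1 matches and the whole KCNJ8 region 1.

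The 16 lists held 39544 to 47197 peaks, and the reads behind them were not counted here, so the depth is unknown. The median −log10 q-value of a list, the strength the peak caller gives, was 5.79 to 7.69 in MDA-MB-231 Fn14 KO cells and 7.86 to 10.8 in the other groups. MDA-MB-231 Fn14 KO untreated replicate 1 stood apart with 46295 peaks, against 39544 in its partner. At the start site of TNFRSF12A a peak was present in all 16 lists, with a fold enrichment of 32.6 to 38.2 in control cells and 16.2 to 22.3 in Fn14 KO cells, which does not test whether the receptor was lost. Of 6 mesenchymal marker genes 5 had a start site peak in every list, whereas the luminal markers ESR1, PGR and CDH1 had one in none and GATA3, ERBB2, ERBB3, EPCAM, KRT8 and KRT18 in every list.

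Before treatment, the acetylation of the members in Hs578T was weak and not fully shared between replicates. Of the 1066 members 543 had a peak in both untreated lists, 371 in replicate 1 only and 152 in replicate 2 only, which gave shares of 85.7% and 65.2%. Where a peak was listed, its median fold enrichment over the local background was 3.25 and 3.15. The peaks covered 621 kb and 447 kb of the members in the 2 untreated lists. These values describe the choice of members and were not tested.

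With TWEAK the same regions of Hs578T carried more and wider peaks. A peak was listed for 986 members in TWEAK replicate 1 and for 1011 in replicate 2, and the covered length was 1036 kb and 1105 kb. The median fold enrichment was 4.24 in both lists. Thus both TWEAK lists stood above both untreated lists in share, length and level, without overlap. In all, 964 members (90.4%) had a peak in both TWEAK lists, 69 in 1 and 33 in neither. A peak in both untreated lists and in neither TWEAK list was found at 7 members (0.657%), against 4.65% of all consensus regions.

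**Figure D1:**
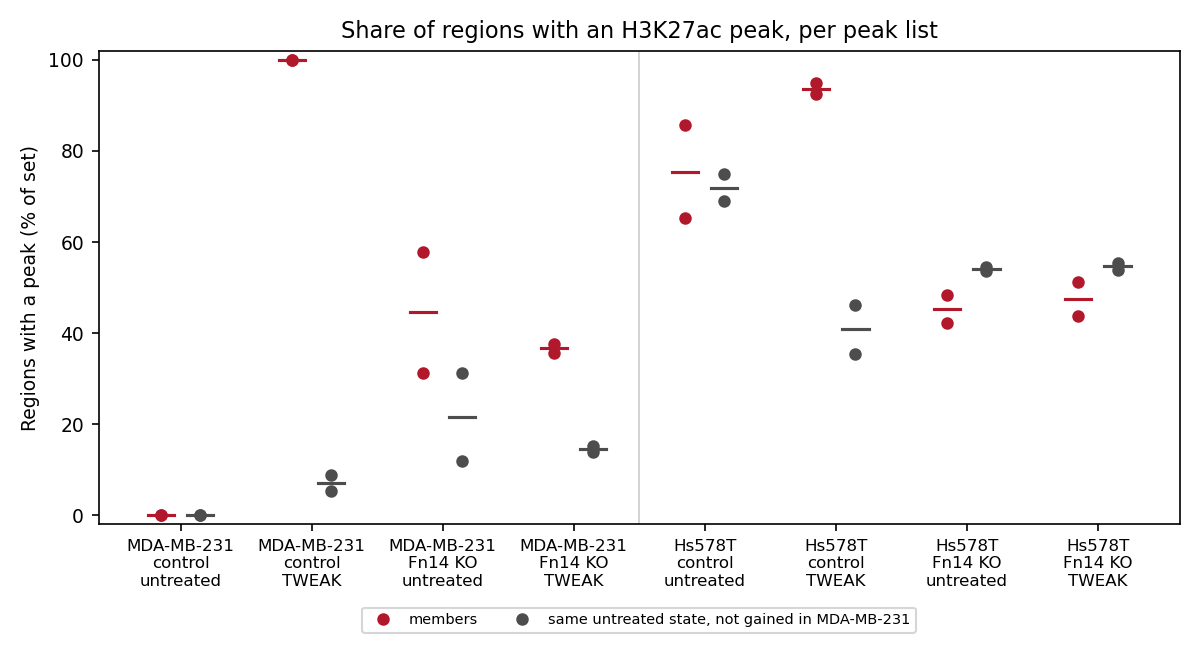
The share of regions with an H3K27ac peak (y axis, percent) is plotted for each peak list (points) and as the mean of the 2 lists of a group (bars), for the 1066 members and for the 5243 regions of the same untreated state that MDA-MB-231 did not gain. The 2 control groups of MDA-MB-231 and the untreated control group of Hs578T were used to choose the regions, and in Hs578T control cells with TWEAK the members sit at 92.5% and 94.8% and the other regions at 35.4% and 46.2%.

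Since an untreated list had chosen the members, the comparison was repeated with the list that had not. Members chosen by untreated replicate 1 alone numbered 914, of which 59.4% had a peak in the untreated list left out, against 93.2% and 95.2% in the TWEAK lists. Members chosen by untreated replicate 2 alone numbered 695, with 78.1% in the list left out against 94.1% and 96.4% in the TWEAK lists. In either direction the untreated list that took no part in the choice was below both TWEAK lists. In covered length the first choice gave 372 kb in the untreated list left out, against 912 kb and 958 kb with TWEAK.

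The regions most like the members were the 5243 that had no peak in either untreated MDA-MB-231 control list, a peak in at least 1 untreated Hs578T control list, and no gain in MDA-MB-231. Their shares in the untreated Hs578T lists, 74.9% and 68.9%, were near those of the members. With TWEAK, however, 35.4% and 46.2% of them had a peak. A peak in both untreated lists and in neither TWEAK list was found at 821 (15.7%). Another 1667, with a peak in 1 untreated list, also had none in either TWEAK list. Untreated lists chose these regions too, so part of these losses follows from the choice. Chosen by untreated replicate 1 alone, 58.5% had a peak in the untreated list left out, against 39.1% and 49.9% with TWEAK. Chosen by untreated replicate 2 alone, the shares were 63.6% against 39.2% and 50.4%. The members were wider, with a median of 1232 bp against 928 bp. Among regions of 1002 to 1633 bp, the lower and upper quartile of member width, 94.4% and 97.0% of 534 members and 44.2% and 54.1% of 1690 other regions had a peak with TWEAK. This restriction by width was chosen after the data had been seen.

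Among the MDA-MB-231 gains, the share with a TWEAK peak also followed the number of untreated Hs578T lists with a peak. It was 94.5% in both TWEAK lists for the 543 members with 2 untreated peaks and 86.2% for the 523 just inside the rule, with 1 untreated peak. Just outside it, 67.9% of the 2013 MDA-MB-231 gains with no untreated Hs578T peak had a peak in both TWEAK lists. In the regions that MDA-MB-231 did not gain the shares were 42.3%, 18.8% and 25.6%, which did not follow that order. Those without an untreated peak in either line became consensus regions only through TWEAK or KO lists. Their share of 25.6% was therefore shaped in part by that filter.

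To compare levels rather than calls, log2 fold enrichment was centred on the median of each list and tested with limma across the 8 Hs578T lists. This was possible for the 32766 regions with a peak in all 8, of which 216 were members, so 850 members were not tested, among them all that were without a peak in some KO list. With TWEAK in control cells 89 of the 216 rose and 1 fell at an adjusted p under 0.05, that is 41.2% and 0.463%. Over all regions tested 12.9% rose and 12.4% fell. The untreated control lists took part in the choice of members, so counts and p-values of contrasts with them are a description. This also holds for the interaction and for the single members below. The median difference was 0.31 on the log2 scale in the members, -0.04 in the 538 tested regions of the same untreated state, of which 19 rose and 43 fell, and -0.000649 over all regions. With only the 4 control lists required and fitted, a setting added later, 228 of 513 members rose and 1 fell. No share over all regions is given here for that setting, so this count cannot be set against a background.

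**Figure D2:**
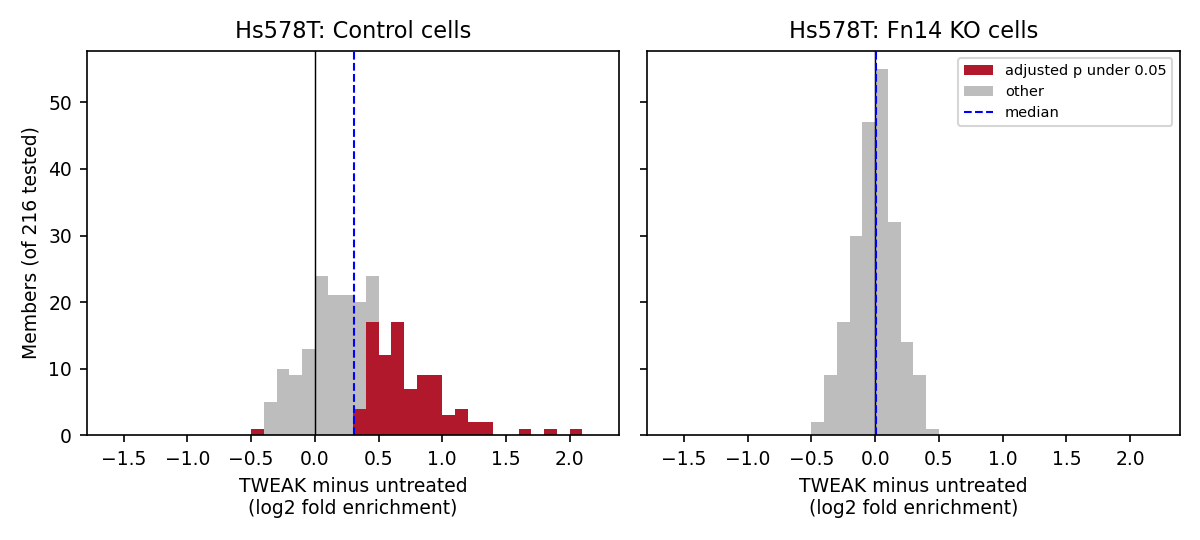
Histograms show the log2 difference in fold enrichment between TWEAK and untreated Hs578T cells (x axis) for the 216 members tested with limma (y axis, number of members), with members passing an adjusted p of 0.05 in red and the median as a dashed line. In control cells the members lean to the right with a median of 0.31, and in Fn14 KO cells they centre on 0.01 with none passing.

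The region 19.2 kb from the start site of KCNJ8, a potassium channel subunit, at chr12:21794755-21796394, was among the clearest. Its fold enrichment in Hs578T control cells was 3.94 and 3.22 untreated and 15.5 and 14.5 with TWEAK, and in Fn14 KO cells it was 4.10 and 4.23 untreated and 3.0 and 4.32 with TWEAK. Only the TWEAK lists of control cells were high, and no other Hs578T list came near them. The log2 difference was 2.03 (SE 0.16, limma adjusted p = 1.48e-06) in control cells and -0.20 (SE 0.16, adjusted p = 1) in Fn14 KO cells. In MDA-MB-231 the same region had no untreated control peak, 9.35 and 11.6 with TWEAK, and at most 3.06 in the 3 Fn14 KO lists that listed it.

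The same picture held at chr12:14220443-14222161, 144 kb from the start of ATF7IP, a cofactor of a histone H3K9 methyltransferase. Its values in Hs578T control cells were 4.70 and 3.68 untreated and 12.5 and 13.7 with TWEAK, while Fn14 KO cells gave 2.79 to 3.48. The groups did not overlap, and the difference was 1.61 (SE 0.15, adjusted p = 4.02e-06, limma). At chr9:111333663-111335696, 3.44 kb from the olfactory receptor gene OR2K2, untreated values of 3.32 and 3.06 stood against 11.9 and 12 with TWEAK and 2.72 to 3.59 in Fn14 KO cells. The log2 difference was 1.86 (SE 0.14, adjusted p = 8.18e-07, limma).

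Smaller but equally separate groups were seen within gene bodies. In ST6GALNAC5, which encodes a sialyltransferase, the region at chr1:76989247-76991174 had values of 3.43 and 3.65 untreated and 8.63 and 9.28 with TWEAK in Hs578T control cells, and 3.55 to 3.97 in Fn14 KO cells. In MDA-MB-231 its TWEAK values were only 3.34 and 3.52, and no MDA-MB-231 Fn14 KO list held it. In ARHGAP26 the region at chr5:143182394-143184486 had 3.29 and 3.19 untreated, 7.56 and 7.85 with TWEAK, and 2.69 to 3.22 in Fn14 KO cells. Both rose with TWEAK in control cells, by 1.30 (adjusted p = 5.68e-06) and 1.21 (adjusted p = 1.41e-05, limma).

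One member went the other way. At chr10:93198894-93199819, 125 kb from CYP26A1, which encodes a retinoic acid hydroxylase, control cells had 4.32 and 4.72 untreated and 3.81 and 3.11 with TWEAK. The log2 difference was -0.43 (SE 0.14, adjusted p = 0.034, limma). In MDA-MB-231 its fold enrichment with TWEAK was 2.50 and 3.34.

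Members without a peak in some Fn14 KO list could not enter the level test, and several of the highest were of this kind. At chr15:79965162-79968596, overlapping BCL2A1, an anti-apoptotic BCL2 family gene and known NF-κB target, Hs578T control cells had 2.81 and 3.05 untreated and 12.7 and 14.3 with TWEAK. MDA-MB-231 had 13.2 and 14.6 with TWEAK, and its 4 Fn14 KO lists held no peak there. In Hs578T Fn14 KO cells the region was listed only in replicate 1 of each treatment, at 2.85 and 3.53. At chr2:215135894-215138482, over a start site of the lipid transporter gene ABCA12, the Hs578T values were 3.02 and 2.73 untreated and 12.3 and 11.8 with TWEAK.

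Further members with high TWEAK levels differed in their untreated state or their KO lists. The region at chr2:7824678-7827647, 828 kb from its nearest start site, that of RNF144A, already had 8.69 and 5.78 in untreated Hs578T cells and 13.3 and 16.5 with TWEAK, but 4.04 and 4.16 in MDA-MB-231 with TWEAK. It was in no Hs578T Fn14 KO list, although it had been the most acetylated of these members before treatment. The region at chr3:126931233-126933737 in CHCHD6, 49.0 kb from the start of the semaphorin receptor gene PLXNA1, had 2.69 and 2.52 untreated and 12.2 and 12.2 with TWEAK. The region at chr3:147712250-147713806, 303 kb from the transcription factor gene ZIC1, had 3.34 and 2.97 untreated and 11.6 and 12.7 with TWEAK, and no Hs578T Fn14 KO list held it. The members nearest to MYO1A and RIPK2, 11.7 kb and 67.6 kb away, had mean TWEAK levels of 12.3 ± 0.505 and 11.6 ± 0.849 (SD, n = 2).

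Fewer members had a peak in Hs578T cells without Fn14 than in control cells, whether or not TWEAK was given. Against untreated control cells part of this follows from the rule, which requires a peak there. Regions of the same untreated state had shares of 53.6% to 55.5% in the 4 KO lists, against 74.9% and 68.9% in untreated control lists. In Hs578T Fn14 KO cells 42.2% and 48.4% of the members had a peak untreated and 43.8% and 51.2% with TWEAK. The covered length was 308 kb and 365 kb untreated and 332 kb and 379 kb with TWEAK. Where listed, the median fold enrichment lay between 3.15 and 3.22 in all 4 lists, against 3.25 and 3.15 in untreated control lists. The lists of the 2 treatments overlapped. The difference in share, TWEAK minus untreated, was 2.20 points (exact permutation p = 0.667, adjusted p = 1 over 12 tests), in a comparison whose smallest possible p is 0.333.

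MDA-MB-231 cells without Fn14 had shares of 57.9% and 31.3% untreated and 35.7% and 37.6% with TWEAK. The untreated lists enclosed the TWEAK lists, and the difference was -7.93 points (exact permutation p = 1). Over both lines the difference was -2.86 points (exact permutation p = 0.889, smallest possible 0.0556). Its sign depended on 1 list: without MDA-MB-231 Fn14 KO untreated replicate 1 it was 3.78 points (exact permutation p = 0.222), and with every list trimmed to 39544 peaks it was 0.147 points.

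Single regions moved in both directions. In Hs578T Fn14 KO cells 30 members had a peak in both TWEAK and neither untreated list, against 1.05% of all regions, and 24 the reverse, against 0.829%, so that 2.81% and 2.25% of the members switched each way. In MDA-MB-231 Fn14 KO cells 15 members (1.41%) switched on, against 0.321%, and 46 (4.32%) off, against 1.35%. Both shares were above the background in both directions. The regions of the same untreated state switched on and off at 2.31% and 2.27% in Hs578T Fn14 KO cells, close to the members, but at 0.458% and 2.17% in MDA-MB-231 Fn14 KO cells, below the members.

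In Hs578T with TWEAK the control lists exceeded the Fn14 KO lists by 46.2 points in share and by 715 kb in covered length. Both control lists were above both KO lists, which gives an exact permutation p of 0.333, the smallest that 2 against 2 lists allow. A peak in both control and neither Fn14 KO list was found at 368 members (34.5%), against 6.93% of all regions, and the reverse at 3 members, against 6.55%. In regions of the same untreated state the order was opposite, with 8.35% and 17.0%. The difference between control and KO in the members exceeded that in these regions by 60.0 points (exact permutation p = 0.333).

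Before treatment the control lists of Hs578T were also above the KO lists, by 30.2 points. Here the rule requires a control peak, so 124 members with a peak in both untreated control lists and neither KO list, against 2.25% of all regions, and 0 of the reverse kind, against 2.02%, follow partly from the choice. Of the members chosen by untreated replicate 1 alone, 59.4% had a peak in the untreated control list left out. In the untreated KO lists 43.0% and 50.1% of them had one. For members chosen by untreated replicate 2 alone, the shares were 78.1% against 55.3% and 60.9%. The level test covers only members with a peak in every KO list. With limma 2 of the 216 members were higher and 2 lower in KO than in control untreated cells (0.926% each), against 0.287% and 0.726% of all regions, and the median difference was -0.02. These counts ran from 0 to 1 and from 0 to 5 when single lists were left out. With absent peaks given a fold enrichment of 1, so that members missing from KO lists entered the test, 0 were higher and 88 lower in KO cells. This too follows partly from the choice, since the rule requires a control peak and absent KO peaks were set to 1. No share over all regions is given here for that fit.

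Those 4 regions differed in form. Near NEGR1, a neuronal adhesion gene 609 kb away, the untreated values were 2.66 and 2.52 in control and 3.99 and 4.43 in KO cells, a difference of 0.67 (adjusted p = 0.0294, limma). In CREB5, a transcription factor gene, they were 3.34 and 2.76 against 4.95 and 4.33 (0.58, adjusted p = 0.0442). Lower in KO cells were a region in RBM20 nearest to the start of PDCD4, a translation inhibitor, with 6.73 and 4.75 in control and 3.04 and 2.78 in KO cells, and one 39.3 kb from PRRX1, a mesenchymal transcription factor gene. The PRRX1 region had 4.07 and 3.8 untreated and 5.75 and 6.07 with TWEAK in control cells, and 2.46 to 3.18 in KO cells. It rose with TWEAK in control cells by 0.54 (adjusted p = 0.00523) and was lower in KO than in control cells untreated by -0.68 (adjusted p = 0.0211, limma).

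After TWEAK the level differed widely between genotypes. Of the 216 members 106 were lower (49.1%) and 3 higher (1.39%) in Fn14 KO than in control Hs578T cells, against 17.5% and 16.9% of all regions, with a median difference of -0.38. In regions of the same untreated state 46 were lower and 77 higher of 538. The 3 members that were higher in KO cells lay near IRS1, the insulin receptor substrate gene, near the homeobox gene PKNOX1, and near IL12B, which encodes a cytokine subunit. At the IRS1 region KO cells had 5.85 and 5.19 and control cells 4.19 and 3.94 with TWEAK (0.46, adjusted p = 0.0123, limma).

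TWEAK itself left the level of the members in Fn14 KO cells without a call. With limma 0 rose and 0 fell, as over all 32766 regions (0% and 0%). An unadjusted p under 0.05 was found for a rise at 5 and for a fall at 10 of the 216 members. Over all 32766 regions it was found at 452 and 410. With absent peaks given a fold enrichment of 1, 12 rose and 11 fell, a fit for which no share over all regions is given here. The median difference was 0.01 and the quartiles of the members were -0.11 and 0.11. The interaction is the TWEAK difference in control minus that in Fn14 KO cells. At an unadjusted p under 0.05 it was positive at 86 and negative at 2 members, against 4283 and 4051 of all 32766 regions. With limma's adjusted p it was positive at 47 members (21.8%) and negative at 0, against 5.75% and 5.07% of all regions. The count was 26 without either of the Hs578T control TWEAK lists and 30 without Fn14 KO TWEAK replicate 1. For KCNJ8 the interaction was 2.23 (SE 0.23, adjusted p = 7.75e-05) and for OR2K2 1.64 (SE 0.20, adjusted p = 0.000214, limma).

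The presence of a member in KO lists of one line went with its presence in those of the other. No Fn14 KO list of either line held 146 members, and all 8 held 68. Of the 322 members in no Hs578T KO list 54.7% were in some MDA-MB-231 KO list, and of the 264 in all 4 Hs578T KO lists 86.0% were. Members in all 4 Hs578T KO lists were also wider, with a median of 1413 bp against 1158 bp, and more often in both untreated control lists, at 83.7% against 24.2%. The median fold enrichment with TWEAK was 4.56 and 3.97 in these groups. All these are features of calls on the same regions, so they are given as a description.

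**Figure D3:**
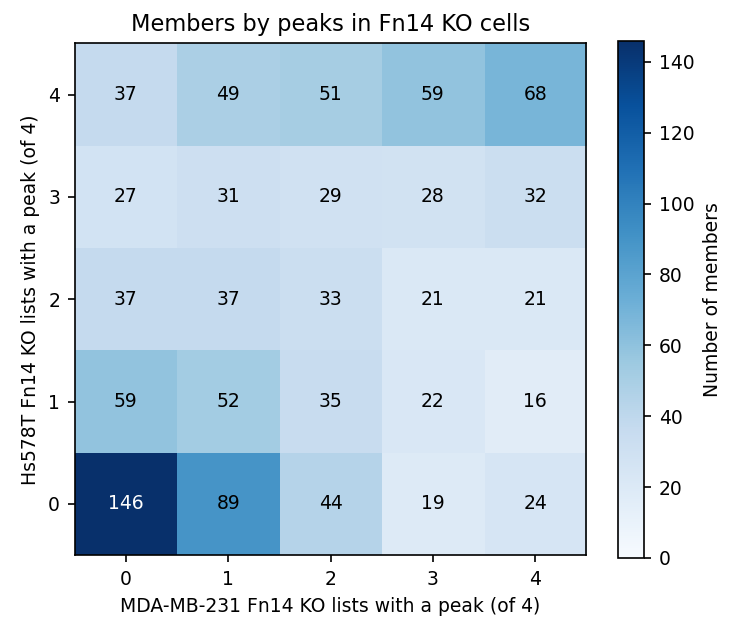
Each cell gives the number of the 1066 members by how many of the 4 MDA-MB-231 Fn14 KO lists (x axis) and how many of the 4 Hs578T Fn14 KO lists (y axis) held a peak. The largest group, 146 members, had no peak in any KO list, and 68 had one in all 8.

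Among the members in all 4 Hs578T control lists, 23 were in no Fn14 KO list of either line. No share over all regions is given here for that count. The COL11A1 region at chr1:102940728-102942960, in a fibrillar collagen gene, had 3.61 and 3.09 untreated and 8.73 and 10.0 with TWEAK in Hs578T, and 5.18 and 6.44 in MDA-MB-231 with TWEAK. In TRIM37, an E3 ubiquitin ligase gene, the region had 2.80 and 3.19 untreated and 7.67 and 9.18 with TWEAK. The region 5.78 kb from DAG1, which encodes dystroglycan, had 2.89 and 2.94 untreated and 8.69 and 7.76 with TWEAK, and those nearest LMCD1 and CNST had mean TWEAK levels of 7.76 ± 1.17 and 6.83 ± 0.205 (SD, n = 2). In each of these the TWEAK lists were above the untreated lists.

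Another 28 members were in all 8 Hs578T lists and in no MDA-MB-231 KO list, again without a share over all regions given here. The region 24.6 kb from NEDD4, an E3 ubiquitin ligase gene, had 6.94 and 5.84 untreated, 8.32 and 9.09 with TWEAK and 7.01 to 8.67 in Fn14 KO cells. Its KO lists were as high as its control lists, and it rose with TWEAK by 0.41 (adjusted p = 0.0389) without a call for the interaction (adjusted p = 0.301, limma). The region nearest CDKN3, a cell cycle phosphatase gene, had 5.35 and 4.01 untreated, 7.88 and 8.91 with TWEAK and 3.19 to 3.97 in KO cells. The region in EFR3B had 4.28 and 3.49 untreated, 7.0 and 8.87 with TWEAK and 3.12 to 3.98 in KO cells. At these 2 regions the KO lists were all below the TWEAK lists of control cells, and both rose with TWEAK, by 0.82 (adjusted p = 0.000887) and 0.98 (adjusted p = 0.000335, limma). Near SPRY1, an antagonist of receptor tyrosine kinase signalling, the interaction was 0.86 and missed the threshold (adjusted p = 0.0761, limma).

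The level reached with TWEAK went together in the 2 lines, although the median per list was 3.6 and 3.62 in MDA-MB-231 and 4.24 in both Hs578T lists. Over the 964 members with a peak in both Hs578T TWEAK lists, the log2 mean levels correlated with a Pearson r of 0.73 and a Spearman coefficient of 0.56. Both values come from the same merged regions, whose width and base composition they share. In 4 groups of like size by rising MDA-MB-231 level, the median Hs578T level with TWEAK was 3.75, 3.88, 4.30 and 5.82, and 79.4%, 88.0%, 96.2% and 98.1% of the members had a peak in both Hs578T TWEAK lists. The untreated Hs578T level where listed was 3.18, 3.22, 3.26 and 3.21. Thus the untreated Hs578T level, where listed, stayed between 3.18 and 3.26 across groups formed by MDA-MB-231 level alone. The untreated lists took part in the rule, and a member without a peak in one has no value there.

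**Figure D4:**
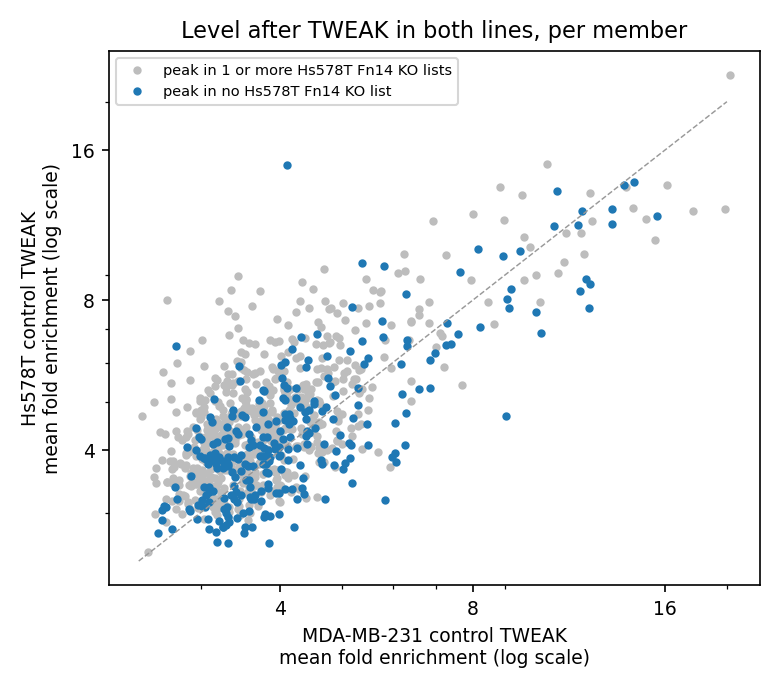
Each point is 1 of 964 members with a peak in both Hs578T control TWEAK lists, with its mean fold enrichment over the 2 TWEAK lists of MDA-MB-231 (x axis) and Hs578T (y axis), both on log scales. Members without a peak in any Hs578T Fn14 KO list are blue and the others grey, and the dashed line marks equal values.

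The members lay mostly away from start sites. Within 2 kb of a start site of a protein-coding gene there were 71 members (6.66%), elsewhere in a gene body 537 (50.4%) and between genes 458 (43.0%). The start site share was 25.1% over all consensus regions and 9.21% over the regions of the same untreated state. The median distance was 33.9 kb, against 18.4 kb over all regions. Only 42 members had another member within 10 kb, whereas 373 (35.0%) had a region present in all 16 lists within that distance.

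The 71 members near start sites included cytokine and receptor genes. At IL32, a proinflammatory cytokine gene, the region at chr16:3064754-3066191 had a peak in 1 untreated Hs578T list, at 3.19, and 7.59 and 6.11 with TWEAK. It had 7.59 and 7.60 in MDA-MB-231 with TWEAK, and none in Hs578T KO cells. IL32 neighbours TNFRSF12A, the gene targeted in the KO cells, and whether this bears on its KO peaks was not tested. At TNFRSF9, the co-stimulatory receptor 4-1BB, the region at chr1:7940375-7942098 had 3.25 and 3.76 untreated, 6.99 and 6.75 with TWEAK and 3.0 to 3.98 in Hs578T KO cells. It rose by 0.93 (SE 0.15, adjusted p = 0.000417), and the interaction was 1.14 (adjusted p = 0.00398, limma).

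Other members near start sites ranged from high to low levels with TWEAK. A second ARHGAP26 region, at chr5:143053880-143056681 over a start site, had a single untreated peak of 2.43 and 13.4 and 13.8 with TWEAK in Hs578T, with 12.9 and 14.6 in MDA-MB-231, and none in Hs578T KO cells. Near CPNE5, which encodes a calcium-dependent phospholipid-binding protein, 1 untreated list had 2.94 and the TWEAK lists 12.1 and 11.0. At DSCAML1, a neuronal adhesion gene, 1 untreated list had 4.29 and the TWEAK lists 13.9 and 10.3. At TFEC, a MiT/TFE family transcription factor gene, the values were 3.56 and 3.02 untreated and 7.93 and 8.78 with TWEAK. Near BST1, an ADP-ribosyl cyclase gene, the TWEAK values were 5.26 and 5.35, near PRR20G 6.79 and 6.50, and near LCN15 3.27 and 3.09. In each of these the TWEAK lists of Hs578T were above every untreated peak listed, with the narrowest margin at LCN15, where the single untreated peak was 2.68.

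Of the fixed gene lists, 5.26% of the 14184 protein-coding genes that were nearest to some consensus region within 100 kb had a member, 746 in all. Of 14 NF-κB subunit and feedback genes 2 had one, TNFAIP3 and TNIP1, both inhibitors of the pathway. Of 12 TRAF, cIAP and NIK signalling genes 1 had a member, BIRC3, which encodes cIAP2. Of 17 chemokine and cytokine genes with a region 3 had one, CXCL1, IL1A and IL32, and of 15 TNF ligand and receptor genes 3, TNFSF18, TNFRSF1B and TNFRSF9. No AP-1 subunit, YAP and TEAD target, TGF-beta pathway, NAD metabolism or luminal marker gene had a member. These lists are short, and the counts are a description.

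The region 50.4 kb from TNFAIP3 had a peak of 2.94 in 1 untreated Hs578T list and of 5.01 and 5.05 with TWEAK, and none in Hs578T Fn14 KO cells. The region in TNIP1 had 1 untreated peak of 3.81, TWEAK values of 4.10 and 3.43, and KO values of 3.24 to 3.35 in 3 lists. At BIRC3 the region 48.7 kb from the start had 2.87 and 2.75 untreated, 3.23 in TWEAK replicate 2 only, and a peak in all 4 Hs578T KO lists. So the 3 pathway genes differed, with a clear margin over untreated lists at TNFAIP3 and overlapping values at TNIP1. At CXCL1, a neutrophil chemokine gene, 1 untreated list had 3.04 and the TWEAK lists 4.0 and 4.31, with none in KO cells. At IL1A the values were 3.26 and 2.72 untreated and 4.65 and 4.10 with TWEAK.

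Matrix, adhesion and growth factor genes gave further members. Of 25 extracellular matrix genes with a region 3 had one, COL5A2, POSTN and SERPINE2, of 16 integrin and adhesion genes 1, ITGA2, and of 21 growth factor and receptor genes 4, FGF5, AREG, VEGFC and HGF. The POSTN region, 64.0 kb from the start of this matricellular protein gene, had 1 untreated peak of 3.38, 4.80 and 3.76 with TWEAK, and none in Hs578T KO cells, although all 4 MDA-MB-231 KO lists held it. The HGF region, 86.9 kb from the growth factor gene, had 2.79 and 2.97 untreated and 5.16 and 6.21 with TWEAK, rose by 0.93 (adjusted p = 0.000367) and had an interaction of 0.83 (adjusted p = 0.0214, limma). The AREG region had 2.95 and 3.26 untreated and 3.54 and 4.14 with TWEAK, a difference of 0.26 that missed the threshold (adjusted p = 0.194, limma). VEGFC had 2 members in its gene body. In Hs578T control cells 1 had a single untreated peak of 2.81, and 3.48 and 3.31 with TWEAK. The other did not rise, with a single untreated peak of 2.76, and 2.77 and 2.71 with TWEAK. At COL5A2 the values overlapped, with 3.28 and 4.03 untreated and 4.27 and 3.79 with TWEAK.

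The remaining lists gave 4 genes. Of 9 epithelial-mesenchymal transition regulators with a region TWIST1 and PRRX1 had a member, of 10 small MAF, NRF2 and BACH genes BACH1, and of 6 mesenchymal markers CAV1. The BACH1 region had 2.82 and 2.68 untreated, 5.21 and 5.2 with TWEAK and a single KO peak of 3.18. The CAV1 region had 3.20 and 3.12 untreated and 5.89 and 3.98 with TWEAK, and rose by 0.58 (adjusted p = 0.028, limma). Its interaction was 0.75 and missed the threshold (adjusted p = 0.0725, limma).

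In windows of 500 bp around the centre of each region, searched on both strands, the AP-1 letters TGANTCA were found in 49.2% of the members and 36.1% of all regions. Since start site regions hold them less often, the share away from start sites is the closer comparison, with 49.9% in members, 45.0% in regions of the same untreated state and 43.5% in all regions. The κB letters GGGANTTTC were found in 5.35% of the members, 1.91% of the regions of the same untreated state, 9.29% of those that only MDA-MB-231 gained, 13.3% of those gained in both lines and 2.68% of all regions. So the members lay between the regions Hs578T held without an MDA-MB-231 gain and those that both lines gained. The shares of TEAD (GGAATG), RUNX (TGTGGT) and MAF (TGCTGA) letters were 29.8%, 32.9% and 34.7%, against 29.1%, 32.3% and 31.3% of all regions, and that of ETS (CCGGAAGT) was 0.281% against 1.51%.

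Members kept and lost in Fn14 KO cells had like shares. In the 322 members in no Hs578T KO list 49.4% held the AP-1 letters and 5.59% the κB letters, and in the 264 in all 4 KO lists 47.7% and 4.92%. A match describes the letters only, and base composition differed between the sets, with a median GC content of 42.4% in members and 46% in all regions.

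**Figure D5:**
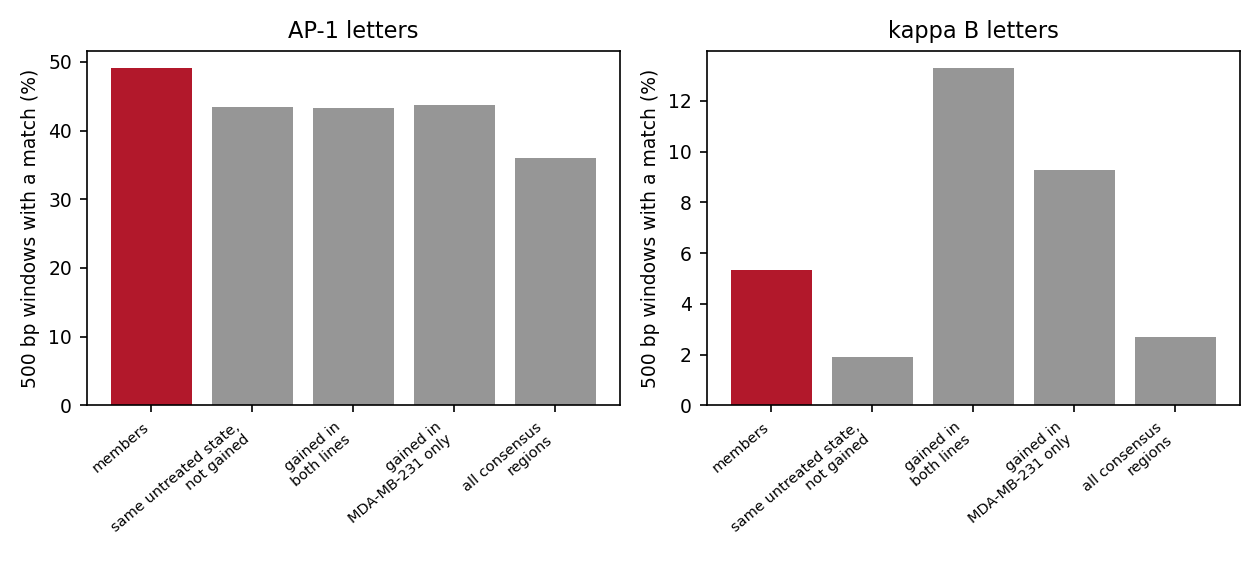
Bars give the share of 500 bp windows (y axis, percent) with the AP-1 letters (left) or the κB letters (right) for members, regions of the same untreated state, gains shared by both lines, gains of MDA-MB-231 only, and all regions. For κB the members, at 5.35%, stand between 1.91% and 13.3%.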

How the data were processed

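H3K27ac ChIP-seq peak lists of 16 samples were analysed, 1 list per sample. Per the study's methods and the submitters' processing notes, the authors used Trimmomatic on the reads, Bowtie2 against hg38 and, for each sample on its own, MACS2 with input subtraction, and then took out blacklisted regions. Tool versions are not given in the sources used here. The lists have no header, and their columns follow the layout of MACS2 broad peaks. Each deposited peak has a score (10 times the −log10 q-value, decimals dropped), a fold enrichment over the local background (a ratio) and the −log10 of its p-value and q-value. The score and the −log10 p-value were not analysed further.

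Peaks were merged at 1 bp, regions found in a single list were dropped, and a region's value in a list was the highest fold enrichment of its peaks. The members, gene lists and tests were chosen with earlier results of these data known. Shares per list were compared with two-sided exact permutation tests over lists, adjusted over 12 tests. Levels were tested with limma 3.58.1 (R 4.3.3) on log2 fold enrichment centred on each list's median, in 1 fit of the 8 Hs578T lists, with Benjamini-Hochberg adjustment over 32766 regions, after a check on simulated data. A region absent from a list has no value there. Start sites and genes came from GENCODE 44 on hg38 (protein-coding genes), and sequences from the hg38 genome. Named regions were the 10 members with the highest mean Hs578T control TWEAK level among those in all 4 Hs578T control lists, up to 5 per direction and limma contrast by p, 10 within 2 kb of a start site by MDA-MB-231 TWEAK level, those nearest to a gene of 15 fixed lists within 100 kb, and 5 each in all Hs578T control lists but no KO list and in all Hs578T lists but no MDA-MB-231 KO list. Replicates are separate samples per the labels, and p-values measure only the spread between them. Python 3.11.15, pandas 2.3.3, numpy 2.4.6 and scipy 1.17.1 were used. The number of reads per sample was not known, which leaves the counting error behind each call unknown. Alternatives were other peak thresholds, list lengths, overlaps, levels, windows and left-out lists.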

Additional observations from a re-analysis of the deposited data

Results flagged for a closer look

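The effect of TWEAK on fold enrichment was compared between control and Fn14 KO Hs578T cells in the members with a peak in every Hs578T list. In limma's interaction test 47 of the 216 members tested had a larger effect in control cells and 0 a larger effect in Fn14 KO cells at an adjusted p under 0.05 (86 and 2 at an unadjusted p under 0.05). Over all 32766 regions tested the shares were 5.75% and 5.07%, and 4283 and 4051 regions had an unadjusted p under 0.05. In the fit with absent peaks given a fold enrichment of 1, some members had a negative interaction call. The untreated control lists took part in the choice of members, so these counts are a description. Groups of 2 lists are too small for a test of whether a list stands apart from its group.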

How the results depend on the processing

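With peaks under the median −log10 q-value of all lists dropped, 573 members were left, and with a peak required in both Hs578T untreated lists 543. The mean share of members with a peak in Hs578T control cells with TWEAK, 93.7%, became 91.6% with trimmed lists, 91.8% with peaks covering at least 50% of a region, 96.6% with both untreated lists required and 95.7% between the quartiles of width. Leaving out 1 list in turn gave 695 to 2616 members, shares of 86.5% to 95.3%, Fn14 KO differences of -9.50 to 3.78 points and control minus KO differences with TWEAK of 31.4 to 49.9 points. The Fn14 KO difference reversed to 0.147 points with trimmed lists and to 3.78 points without MDA-MB-231 Fn14 KO untreated replicate 1, and the cause was not tested. Members near a start site made up 4.50% at 1 kb and 14.4% at 5 kb. AP-1 letters were in 39.1% of 300 bp and 64.0% of 1000 bp windows.

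The limma counts moved as follows, with no share over all regions given beside them. Counts of contrasts with untreated control cells were shaped in part by the rule. With absent peaks set to a fold enrichment of 1, TWEAK in control cells gave 135 higher and 4 lower, in Fn14 KO cells 12 and 11, the interaction 11 negative, and KO against control 0 higher and 88 lower untreated and 378 lower with TWEAK. With the weighted mean level 2 were lower in control cells. KO against control untreated gave 1 higher with the −log10 q-value and 1 without centring. At or above the median level only 1 member was tested, with 1 higher in control cells and 0 in every other count. In the 4 control lists alone, an alternative added after the data had been seen, 228 were higher in control cells. Leaving out 1 Hs578T list gave 60 to 101 higher and 0 to 3 lower for TWEAK in control cells, 0 and 0 in Fn14 KO cells, 26 to 48 positive and 0 to 1 negative interactions, 0 to 1 higher and 0 to 5 lower for KO against control untreated, and 1 to 4 higher and 75 to 117 lower with TWEAK. Of 1193 fits of single named members under an alternative 64 lost and 6 gained a call, and 0 reversed with a call.

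Replicate numbers did not pair the samples: deviations of same-numbered Hs578T lists correlated at -0.132 to 0.231. With the replicate number as a block, 1 interaction was negative and 1 member was higher in KO untreated cells. The exact test of the Fn14 KO difference (-2.86 points) gave p = 1 with the block, and that of the control minus KO difference (46.2 points) gave p = 0.5, the smallest the block allows.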
